A study of Homo sapiens with 28 samples.

Results

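The genes described here are those of the outer layer of WNT signalling: the secreted WNT ligands, their Frizzled (FZD) receptors and co-receptors, the secreted inhibitors, the R-spondins with their LGR receptors and the ubiquitin ligases RNF43 and ZNRF3, and the feedback genes AXIN2 and NKD1. They are defined by a list of gene symbols and number 57 of the 26346 symbols counted in each library. The 57 hold 19 ligands, 10 FZD receptors, 6 co-receptors, 11 inhibitors, 9 genes of the R-spondin axis and 2 feedback genes. RNA was sequenced from AN3CA cells, a human endometrial carcinoma line, in 28 libraries of 13 groups. The ARID1A groups were labelled as carrying wild-type protein (WT), the truncations CBR and delIDR1, a mutant of the DNA-binding ARID domain (DBDmut), a fusion that carries DDX4 sequence (DDX4 hybrid), an AQG scramble mutant (AQGscram) or a mutant called 42YS. The labels of 42YS also use another order of letters and number. The ARID1B groups were labelled as carrying WT, mutant M2, which lacks S320 to G327 per the labels, or the mutants A457_G461del, Block13del and Block9del. Each construct had 2 libraries, and the empty vector, the control of every construct, had 4. All groups were untreated cells of the same line, and the cells with the empty vector held RNA of both ARID1A and ARID1B. The labels give neither how the constructs were introduced nor whether a group was 1 clone or whether replicates came from separate cultures. The p-values therefore rest on the spread of these libraries alone, and that spread may be technical.

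WNT proteins carry a lipid and bind an FZD receptor together with the co-receptor LRP5 or LRP6, which spares beta-catenin from destruction and lets it act with TCF and LEF factors on genes such as AXIN2. Other ligands act through ROR1, ROR2 or RYK without beta-catenin. DKK1, SOST and SOSTDC1 block LRP co-receptors, SFRP proteins and WIF1 bind ligands, and RNF43 and ZNRF3 remove FZD receptors from the membrane unless an R-spondin on an LGR receptor draws them away. In endometrium the pathway is known for its part in gland formation and in the monthly cycle of growth.

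Each library had between 16.6 and 27.9 M reads on genes. Levels are counts scaled to 1 M reads on genes and between libraries (CPM), so that 1 CPM stands for 15.3 to 28.4 reads. Libraries fell into 3 sets by how strictly their reads kept to the strand opposite the gene. Set 1, at 84.5 to 87.8% of reads, holds the ARID1A constructs WT, CBR, delIDR1 and DBDmut beside empty vector replicates 1 and 2. Set 2, at 98.1 to 98.6%, holds the DDX4 hybrid and WT and M2 of ARID1B beside empty vector replicates 3 and 4. Set 3, at 96.7 to 97.8%, holds AQGscram, 42YS, A457_G461del, Block13del and Block9del. Set 3 holds no empty vector library, so for its 5 constructs the set and the construct cannot be told apart in comparisons with the empty vector. For the 7 constructs of sets 1 and 2 a second test used the 2 empty vector libraries of the same set, called the own pair. Empty vector replicates 3 and 4 differed from replicates 1 and 2 in 11 of the 34 tested members, 6 higher and 5 lower, where 28.8% and 29.7% of all 14220 tested genes were called higher and lower. ARID1A RNA averaged 523 to 1017 CPM over the ARID1A constructs of sets 1 and 2, 247 ± 52.6 with AQGscram and 374 ± 1.32 with 42YS, against 288 ± 12.5 CPM with the empty vector, and ARID1B RNA averaged 344 to 4250.0 CPM over the ARID1B constructs, against 98.03 ± 6.54 CPM with the empty vector. ARID1A RNA in the libraries labelled AQGscram, at 210 and 284 CPM, was thus not above the empty vector, and this comparison does not bear out that label. The ARID1B constructs of set 3 averaged 203 to 239 CPM of ARID1A RNA. Set 3 holds no empty vector library, so these values do not settle the label. AQGscram stands below for the libraries so labelled. How far these levels bear on the members was not tested. Of 10 markers of endometrial carcinoma 3 to 5 lay at 1 CPM or more in every group. Their summed level was 73.3 to 73.7 CPM with ARID1A WT, 71.7 to 73.7 CPM with ARID1B WT, 118 to 125 CPM with M2 and 33.9 to 58.8 CPM with the other constructs, against 29.8 to 49.2 CPM with the empty vector, and its part in the results was not tested. ESR1 and PGR, the oestrogen and progesterone receptors of endometrium, lay under 0.1 CPM in every group, as did PAX8 in all groups but ARID1A WT and delIDR1. Summed markers of blood cells reached at most 0.42 CPM and those of endothelium 0.585 CPM.

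Of the 57 genes, 34 passed the filter on low counts and were tested, and 10 of these 34 lay under the filter level of 0.454 CPM in all 4 empty vector libraries: DKK3, FZD8, LGR6, ROR2, RSPO1, SOST, WNT11, WNT4, WNT7B and WNT9A. These 10 passed through groups in which they were higher, so counts over the 34 are a description of the tested members and not of the family. The 23 others stayed at low levels in every group. SFRP2 and FZD10 had 0 reads in all 28 libraries, which allows up to 0.00478 CPM by counting error alone, and 14 of the 57 had fewer than 10 reads in all. The highest group means among the 23 were those of WNT5A at 0.385 CPM and of SFRP5 at 0.232 CPM. WNT3A, the ligand most used to activate beta-catenin in culture, had 6 reads in all libraries, LGR5, a stem cell marker of the gut, had 4, and RNF43 had 35.

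With both wild-type proteins, CBR, delIDR1, DBDmut and M2, 17 to 20 of the 34 tested members were higher than with the empty vector, while with AQGscram and 42YS 3 to 5 were higher. Both AQGscram and 42YS are of set 3, so in their counts the set and the construct cannot be told apart. Their counts of called members also moved with the choice of empty vector pair. A gene counts as called where edgeR's quasi-likelihood test gave an adjusted p under 0.05 (Benjamini-Hochberg, over all 14220 genes). With ARID1A WT, 20 of 34 members were higher and 3 lower than with the empty vector, where 21.1% and 23.5% of all genes were called in these directions, and the median log2 fold change was 0.66 over the members and -0.06 over all genes. CBR gave 17 higher and 4 lower, against 25.2% and 27.8% of all genes, with medians of 0.71 and -0.02. With delIDR1 there were 18 higher and 3 lower, against 22.4% and 27.7%, with medians of 0.46 and -0.03. The ARID mutant DBDmut had 17 higher and 3 lower, against 16.9% and 18.3%, with medians of 0.43 and -0.03. The 4 set 1 constructs thus each had 17 to 20 of the 34 called higher, over a background of 16.9 to 25.2%. The 34 include 10 members under the filter level in all 4 empty vector libraries, which were tested through groups in which they were higher. Higher calls of these 10 were thus favoured by the filter, and for no construct are the counts read as an excess over all genes. With the DDX4 hybrid, 12 members were higher and 0 lower, against 19.7% and 19.8%, and the medians were 0.27 and -0.003. The libraries labelled AQGscram gave 5 higher and 2 lower, against 10.9% and 13.7%, and 42YS gave 3 and 3, against 15.8% and 18.0%. The medians of both mutants, 0.05 and -0.002, lay near the -0.02 of all genes.

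Among ARID1B constructs, WT gave 17 members higher and 4 lower, against 19.2% and 23.9% of all genes, with medians of 0.23 and -0.07. M2 gave 18 higher and 0 lower, against 22.1% and 25.1%, with medians of 0.49 and -0.05. The 3 other deletions, also of set 3, had shares near the background. A457_G461del gave 9 higher and 4 lower, against 19.1% and 19.9%. Block13del gave 7 and 6, against 19.1% and 20.2%, and Block9del gave 4 and 6, against 17.8% and 21.2%. The 0 lower members of the DDX4 hybrid and of M2 were also 0 at an unadjusted p under 0.05 in edgeR and 0 by DESeq2. Against own pairs, with the percentages of all genes called in each direction in brackets, the counts of higher and lower members were 19 and 3 with ARID1A WT (29.9% and 30.8%), 17 and 5 with CBR (28.7% and 30.8%), 16 and 3 with delIDR1 (25.2% and 31.1%) and 15 and 3 with DBDmut (30.0% and 29.1%). They were 13 and 1 with the DDX4 hybrid (26.1% and 24.4%), 18 and 5 with ARID1B WT (23.6% and 28.5%) and 21 and 1 with M2 (25.4% and 27.7%). Without delIDR1 replicate 1 the 21 called members of delIDR1 were 13, and without either DBDmut library the 20 of DBDmut were 13. Without 42YS replicate 1 its 6 were 3, without A457_G461del replicate 1 its 13 were 8, and without Block13del replicate 1 its 13 were 8.

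**Figure D1:**
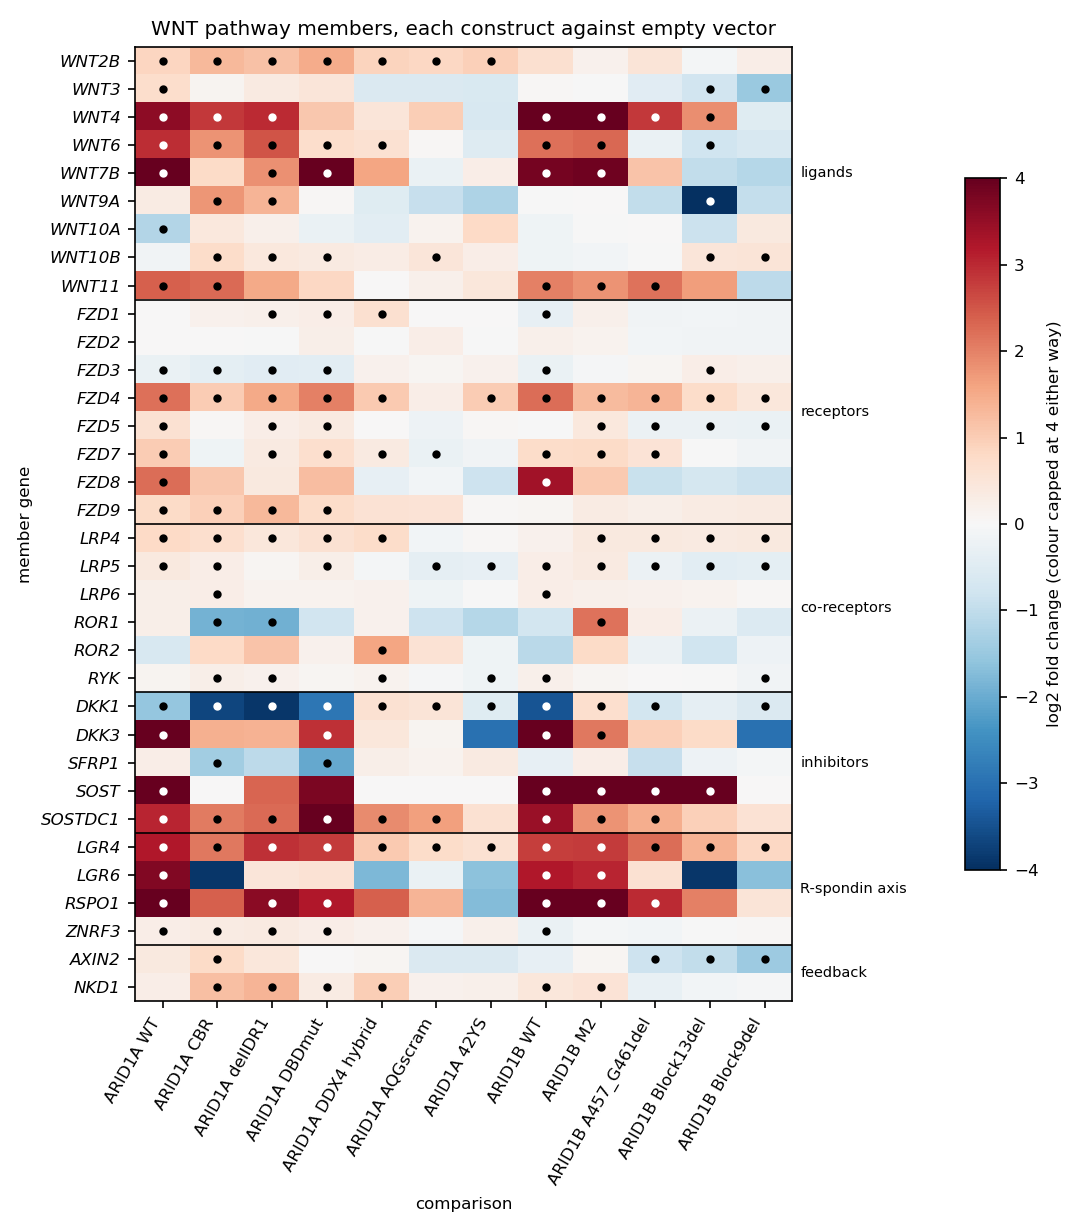
Log2 fold change of each of the 34 tested members (rows, grouped by role) in each of the 12 constructs against the 4 empty vector libraries (columns), with marks on members called at an adjusted p under 0.05. LGR4 is called higher in all 12 columns and FZD4 in 11 of 12, while DKK1 is lower with ARID1A WT, CBR, delIDR1, DBDmut and ARID1B WT and higher with M2, the DDX4 hybrid and AQGscram.

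Ligands called with the wild-type proteins against all 4 empty vector libraries were higher except WNT10A, and WNT4, WNT6 and WNT7B changed most among those that reached 1 CPM. WNT4, a ligand needed for the uterus and its glands in mice, was at 2.87 and 2.76 CPM with ARID1A WT, 1.85 and 1.49 with CBR, 1.702 and 2.02 with delIDR1 and 0.4801 and 0.507 with DBDmut. It was at 0.305 and 0.352 CPM with the DDX4 hybrid, 0.453 and 0.477 with AQGscram and 0.212 and 0.0824 with 42YS, against 0.363, 0.1798, 0.131 and 0.223 CPM with the empty vector. With ARID1B constructs it was at 10.4 and 10.9 CPM with ARID1B WT, 4.24 and 4.32 with M2, 1.59 and 1.76 with A457_G461del, 0.682 and 0.996 with Block13del and 0.116 and 0.217 with Block9del. Both ARID1B WT libraries and both M2 libraries thus lay above every other library, and those of 42YS and Block9del lay within or next to the range of the empty vector. WNT4 rose with ARID1B WT (log2 fold change 5.495 ± 0.22, adjusted p = 9.61e-14), M2 (4.18 ± 0.23, adjusted p = 1.77e-11) and ARID1A WT (3.57 ± 0.25, adjusted p = 4.98e-10). It also rose with delIDR1 (2.98 ± 0.26, adjusted p = 2.43e-08), CBR (2.83 ± 0.27, adjusted p = 5.14e-08), A457_G461del (2.83 ± 0.26, adjusted p = 7.75e-08) and Block13del (1.85 ± 0.30, adjusted p = 0.000106). It was not called with DBDmut (log2 fold change 1.08 ± 0.34, adjusted p = 0.0532) although both libraries lay above every empty vector library. These are levels in whole cultures, in which a smaller share of cells with the RNA and less RNA per cell cannot be told apart.

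WNT6, a ligand of epithelia, was at 15.1 and 14.4 CPM with ARID1A WT, 6.91 and 6.200 with CBR, 11.2 and 10.5 with delIDR1 and 3.26 and 2.81 with DBDmut. Its levels were 2.97 and 2.74 CPM with the DDX4 hybrid, 1.18 and 2.62 with AQGscram and 1.36 and 1.28 with 42YS, against 2.22, 2.02, 1.504 and 1.67 CPM with the empty vector. ARID1B constructs gave 9.29 and 7.93 CPM with ARID1B WT, 9.900 and 8.64 with M2, 1.26 and 1.84 with A457_G461del, 0.734 and 1.37 with Block13del and 1.05 and 1.35 with Block9del. The libraries of ARID1A WT, CBR, delIDR1, ARID1B WT and M2 all lay above every other library. WNT6 rose with ARID1A WT (log2 fold change 2.97 ± 0.20, adjusted p = 3.61e-10), delIDR1 (2.53 ± 0.21, adjusted p = 8.47e-09) and CBR (1.799 ± 0.22, adjusted p = 1.12e-06). It rose likewise with M2 (2.299 ± 0.21, adjusted p = 2.4e-08) and ARID1B WT (2.19 ± 0.21, adjusted p = 8.8e-08). The smaller calls with DBDmut (0.69), the DDX4 hybrid (0.60) and Block13del (-0.80) were each lost when some single libraries were left out. This was so without DBDmut replicate 1 or 2 or empty vector replicate 3 or 4 (adjusted p of 0.0533 to 0.206) for DBDmut. It was so without DDX4 hybrid replicate 1 or 2 or empty vector replicate 2, 3 or 4 (adjusted p of 0.0539 to 0.205) for the hybrid and without Block13del replicate 1 or empty vector replicate 1 or 2 (adjusted p of 0.0663 to 0.342) for Block13del. Against the own pair DBDmut was not called (0.52 ± 0.24, adjusted p = 0.0702), while the DDX4 hybrid was called higher (0.84 ± 0.27, adjusted p = 0.012).

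WNT7B, a ligand of epithelia that can signal through beta-catenin, was at 4.74 and 3.702 CPM with ARID1A WT, 0.04400 and 0.1399 with CBR, 0.218 and 0.1797 with delIDR1 and 1.25 and 1.52 with DBDmut. It was at 0.152 and 0.176 CPM with the DDX4 hybrid, 0.0453 and 0.0397 with AQGscram and 0 and 0.124 with 42YS, against 0.0453, 0.0899, 0.0654 and 0 CPM with the empty vector. ARID1B constructs gave 0.769 and 0.8496 CPM with ARID1B WT, 0.841 and 0.846 with M2, 0.122 and 0.117 with A457_G461del, 0.0525 and 0 with Block13del and 0 and 0.0435 with Block9del. ARID1A WT stood above all other groups, and the 4 empty vector libraries held 4 reads together. WNT7B rose with ARID1A WT (log2 fold change 6.21 ± 0.42, adjusted p = 2.67e-10), DBDmut (4.61 ± 0.49, adjusted p = 3.69e-07), M2 (3.89 ± 0.53, adjusted p = 5.48e-06) and ARID1B WT (3.84 ± 0.55, adjusted p = 1.24e-05). Its call with delIDR1 (1.84 ± 0.72, adjusted p = 0.0394) was lost without delIDR1 replicate 1 or 2 or empty vector replicate 1, 3 or 4 (adjusted p of 0.0522 to 0.174) and against the own pair (1.48 ± 0.84, adjusted p = 0.139).

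WNT2B, a ligand of stroma and gut crypts, was at 0.878 and 0.984 CPM with ARID1A WT, 1.58 and 0.979 with CBR, 1.27 and 1.08 with delIDR1 and 1.58 and 1.29 with DBDmut. It was at 0.876 and 1.06 CPM with the DDX4 hybrid, 0.996 and 0.834 with AQGscram and 1.06 and 0.947 with 42YS, against 0.408, 0.584, 0.327 and 0.725 CPM with the empty vector. ARID1B constructs gave 0.769 and 0.8496 CPM with ARID1B WT, 0.535 and 0.623 with M2, 0.693 and 0.783 with A457_G461del, 0.525 and 0.456 with Block13del and 0.581 and 0.652 with Block9del. All ARID1A libraries lay above every empty vector library, as did those of ARID1B WT, while those of M2, A457_G461del, Block13del and Block9del overlapped them. WNT2B was the ligand called higher with all 7 ARID1A constructs and with none of the 5 ARID1B constructs, by 0.82 to 1.47 on the log2 scale, most with DBDmut (log2 fold change 1.47 ± 0.25, adjusted p = 0.000121) and CBR (1.31 ± 0.25, adjusted p = 0.000234). Calls were lost without ARID1A WT replicate 1 or 2 or empty vector replicate 1 or 3 (adjusted p of 0.0629 to 0.199) for ARID1A WT, without CBR replicate 1 (adjusted p = 0.0581) for CBR and without DDX4 hybrid replicate 2 (adjusted p = 0.131) for the hybrid. That of AQGscram was lost without AQGscram replicate 1 or 2 or empty vector replicate 1, 2 or 3 (adjusted p of 0.0509 to 0.205) and that of 42YS without 42YS replicate 1 (adjusted p = 0.104). The hybrid was not called against its own pair (0.83 ± 0.34, adjusted p = 0.0512). Its difference between ARID1A WT and ARID1B WT was not called (log2 fold change 0.20 ± 0.30, adjusted p = 0.749).

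WNT3, a ligand that acts through beta-catenin, was at 3.103 and 3.14 CPM with ARID1A WT, 2.02 and 2.098 with CBR, 2.79 and 2.11 with delIDR1 and 2.59 and 2.72 with DBDmut. It was at 1.03 and 1.51 CPM with the DDX4 hybrid, 1.31 and 1.23 with AQGscram and 1.49 and 1.03 with 42YS, against 2.49, 2.52, 1.11 and 1.28 CPM with the empty vector. ARID1B constructs gave 2.03 and 1.89 CPM with ARID1B WT, 1.64 and 2.14 with M2, 1.55 and 1.25 with A457_G461del, 0.892 and 1.29 with Block13del and 0.737 and 0.608 with Block9del. The empty vector pairs themselves differed, with replicates 3 and 4 lower than replicates 1 and 2 by a log2 fold change of -1.05 ± 0.24, adjusted p = 0.000599. WNT3 was lower with Block9del (log2 fold change -1.49 ± 0.32, adjusted p = 0.00144), also against replicates 3 and 4 alone (-0.83, adjusted p = 0.0368). Block9del is of set 3, so in both tests the set and the construct cannot be told apart. Against own pairs it was called higher with ARID1B WT (0.70 ± 0.26, adjusted p = 0.0279) and M2 (0.64 ± 0.26, adjusted p = 0.0382), where the 4 libraries together gave no call, and it was not called with ARID1A WT (0.32 ± 0.19, adjusted p = 0.153). The call of ARID1A WT against all 4 (0.72 ± 0.26, adjusted p = 0.0324) was lost without ARID1A WT replicate 1 or 2 or empty vector replicate 3 or 4 (adjusted p of 0.0675 to 0.14). The call lower with Block13del (-0.78) was lost without Block13del replicate 1 or 2 or empty vector replicate 1 or 2 (adjusted p of 0.0688 to 0.308).

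Of the other tested ligands, WNT10B had group means of 4.77 to 9.06 CPM and was called higher with 6 constructs, by at most 0.73 with CBR. Its empty vector pairs differed (0.36 ± 0.14, adjusted p = 0.0301), and against the own pair it was called lower with ARID1B WT (-0.36 ± 0.14, adjusted p = 0.0355). WNT11, a ligand of the route without beta-catenin, stayed at or under 0.50 CPM as a group mean and was called higher with 5 constructs. These were ARID1A WT (log2 fold change 2.39 ± 0.66, adjusted p = 0.0061), CBR (2.26 ± 0.65, adjusted p = 0.00668), A457_G461del (2.16 ± 0.65, adjusted p = 0.013), ARID1B WT (2.01 ± 0.69, adjusted p = 0.0251) and M2 (1.798 ± 0.69, adjusted p = 0.0373). Those of A457_G461del, ARID1B WT and M2 were lost without A457_G461del replicate 1 (adjusted p = 0.276), without ARID1B WT replicate 2 or empty vector replicate 1 (adjusted p of 0.0616 to 0.247) and without M2 replicate 1 or empty vector replicate 1 or 3 (adjusted p of 0.0664 to 0.491). WNT10A was called once, lower with ARID1A WT (log2 fold change -1.17 ± 0.47, adjusted p = 0.0473), and lost that call without ARID1A WT replicate 2 or empty vector replicate 1, 2 or 4 (adjusted p of 0.0746 to 0.454). WNT9A was higher with CBR (log2 fold change 1.75 ± 0.40, adjusted p = 0.00124) and delIDR1 (1.35 ± 0.42, adjusted p = 0.0125), the call of delIDR1 being lost without delIDR1 replicate 2 (adjusted p = 0.102) and against the own pair (1.08 ± 0.47, adjusted p = 0.0558). With Block13del it had 0 reads in both libraries, at least 2.97-fold lower than the 16 reads of the empty vector.

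**Figure D2:**
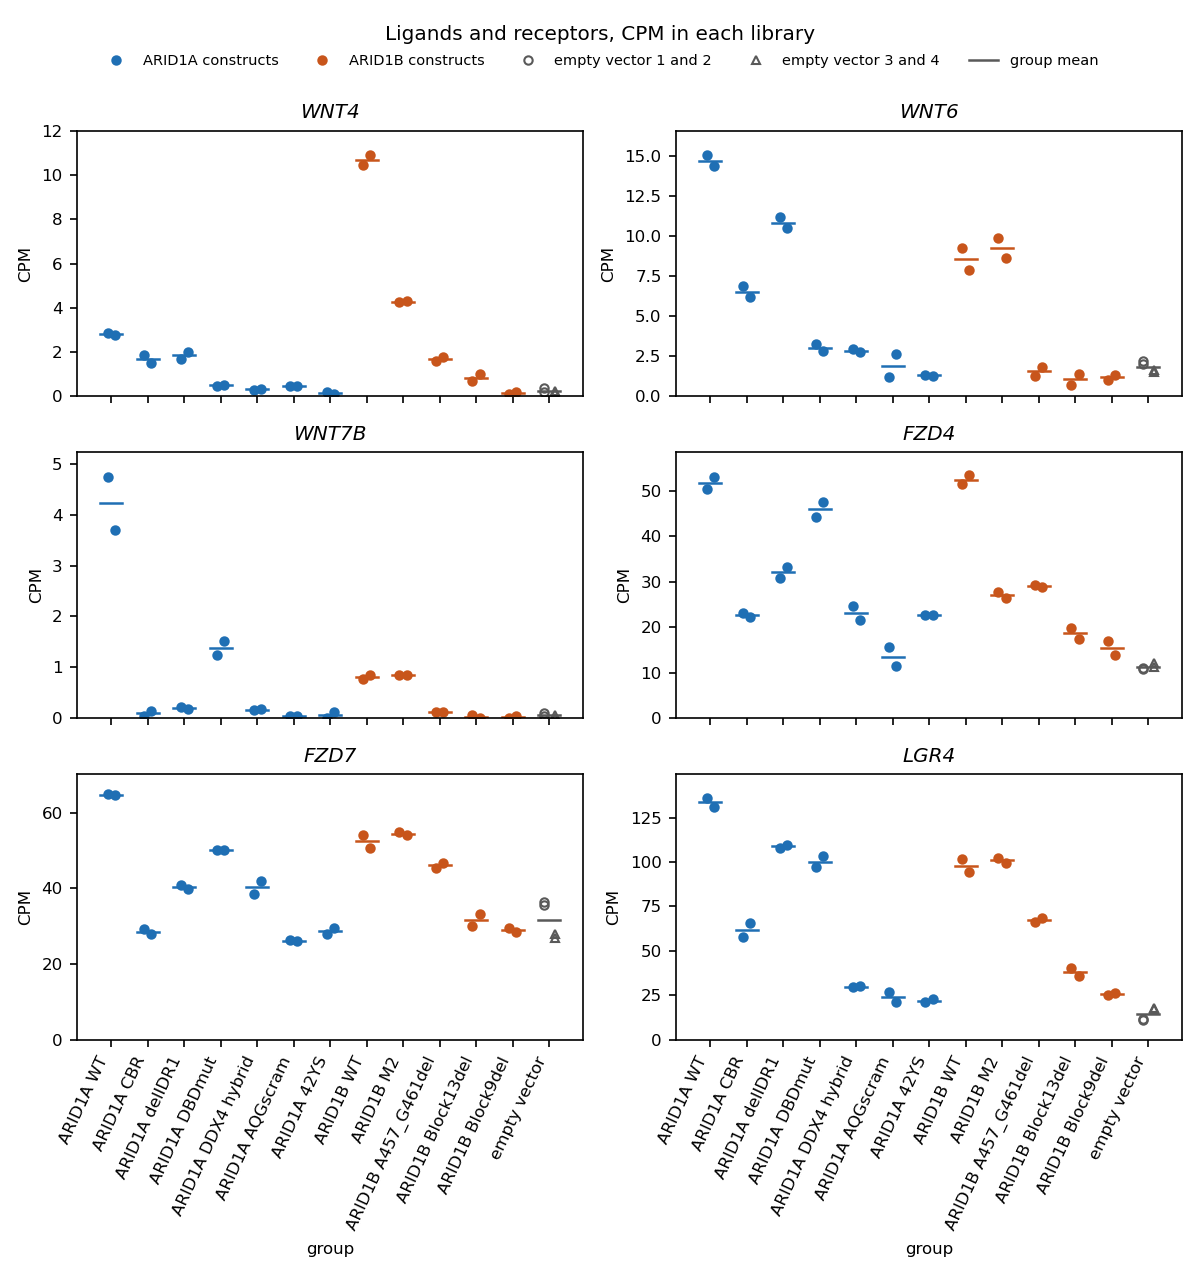
CPM of ligand, receptor and R-spondin receptor genes in each library (points) with the group mean (line), in 12 constructs and the empty vector, whose replicates 1 and 2 and replicates 3 and 4 have different symbols. LGR4 with ARID1A WT lies at 136 and 131 CPM and with Block9del at 24.96 and 26.03 CPM, all above the empty vector, and WNT4 with ARID1B WT at 10.4 and 10.9 CPM.

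Among the receptors, FZD4 rose with nearly every construct, FZD7 with both wild-type proteins and 5 of the mutants, and LGR4, a receptor of R-spondins, with all of them. FZD4 is a receptor of WNT ligands and of norrin. The upstream letters of FZD4 and LGR4 are shown because these members were called higher in more constructs than any other. Each is the 250 bases before the gene's start in RefSeq on GRCh38.p14, read on the strand of the gene (minus for both), at chr11:86955396-86955645 for FZD4 and chr11:27472791-27473040 for LGR4; the deposited counts were made on hg19, whose coordinates are not used here.
FZD4: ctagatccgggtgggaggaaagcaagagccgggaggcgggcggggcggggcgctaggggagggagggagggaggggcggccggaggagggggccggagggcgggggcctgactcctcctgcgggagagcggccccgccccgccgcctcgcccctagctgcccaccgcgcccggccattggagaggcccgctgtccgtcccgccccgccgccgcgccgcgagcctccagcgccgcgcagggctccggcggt
LGR4: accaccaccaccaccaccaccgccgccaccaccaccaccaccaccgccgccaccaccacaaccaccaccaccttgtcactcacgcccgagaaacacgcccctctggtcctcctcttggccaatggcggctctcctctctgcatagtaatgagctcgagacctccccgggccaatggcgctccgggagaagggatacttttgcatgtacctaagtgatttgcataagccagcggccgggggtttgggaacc
They hold 33 and 14 CG dinucleotides, where the median over 35116 promoters of this length is 11. No capitals appear since none of the motifs searched on both strands was in either: AP-1, TEAD, TCF/LEF and TATA. The AP-1 letters were TGAGTCA, with TGACTCA as the other form, found in 4.2% of the 35116 promoters. The TEAD letters were GGAATG, found in 11.9%. The TCF/LEF letters were CTTTGAT and, as the other form, CTTTGTT, found in 6.6%. The TATA letters were TATAAA, found in 10.7%. Promoters were found for 37 of the 57 members, of which 0, 1, 1 and 2 held these motifs.

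FZD4 was at 50.5 and 53.00 CPM with ARID1A WT, 23.1 and 22.2 with CBR, 30.9 and 33.3 with delIDR1 and 44.4 and 47.7 with DBDmut. It was at 24.7 and 21.6 CPM with the DDX4 hybrid, 15.5 and 11.5 with AQGscram and 22.6 and 22.7 with 42YS, against 10.8, 10.9, 12.2 and 11.3 CPM with the empty vector. ARID1B constructs gave 51.5 and 53.6 CPM with ARID1B WT, 27.8 and 26.4 with M2, 29.2 and 28.9 with A457_G461del, 19.9 and 17.5 with Block13del and 16.9 and 13.9 with Block9del. Every construct library but AQGscram replicate 2 lay above all 4 empty vector libraries, and with AQGscram the test gave no call (log2 fold change 0.26 ± 0.10, adjusted p = 0.0757). FZD4 rose most with ARID1B WT (log2 fold change 2.22 ± 0.094, adjusted p = 3.07e-13), ARID1A WT (2.199 ± 0.095, adjusted p = 2.46e-13) and DBDmut (2.03 ± 0.095, adjusted p = 1.51e-12). Its smallest call, with Block9del (0.45 ± 0.10, adjusted p = 0.00181), was lost without Block9del replicate 1 (adjusted p = 0.0892).

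LGR4, which binds R-spondins and thereby keeps FZD receptors at the membrane, was at 136 and 131 CPM with ARID1A WT, 58.04 and 65.6 with CBR, 108 and 109 with delIDR1 and 97.1 and 103 with DBDmut. It was at 29.4 and 30.3 CPM with the DDX4 hybrid, 26.9 and 21.4 with AQGscram and 20.98 and 22.7 with 42YS, against 11.3, 11.7, 17.5 and 17.6 CPM with the empty vector. ARID1B constructs gave 101 and 94.3 CPM with ARID1B WT, 102 and 99.6 with M2, 66.4 and 68.5 with A457_G461del, 40.3 and 35.8 with Block13del and 24.96 and 26.03 with Block9del. No construct library overlapped the empty vector, and those of 42YS and AQGscram came closest. LGR4 rose with all 12 constructs, least with 42YS (log2 fold change 0.60 ± 0.14, adjusted p = 0.00274) and AQGscram (0.74 ± 0.14, adjusted p = 0.000851) and most with ARID1A WT (3.21 ± 0.13, adjusted p = 8.71e-14), and no call was lost when any 1 library was left out. Its empty vector pairs differed, replicates 3 and 4 being higher than replicates 1 and 2 by 0.61 ± 0.11, adjusted p = 2.26e-05 on the log2 scale. Against replicates 3 and 4 alone, 42YS (0.31, adjusted p = 0.00984), AQGscram (0.45, adjusted p = 0.000685) and Block9del (0.54, adjusted p = 5.44e-05) were still called, each by less than the 0.61 between the pairs. These constructs are of set 3, which holds no empty vector library, so the set and the construct cannot be told apart in this test.

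FZD7, a receptor linked to stem cells of epithelia, was at 64.98 and 64.6 CPM with ARID1A WT, 29.2 and 27.8 with CBR, 40.9 and 39.8 with delIDR1 and 50.2 and 50.2 with DBDmut. It was at 38.7 and 42.1 CPM with the DDX4 hybrid, 26.3 and 26.01 with AQGscram and 27.99 and 29.4 with 42YS, against 36.3, 35.5, 26.9 and 28.04 CPM with the empty vector. ARID1B constructs gave 54.2 and 50.7 CPM with ARID1B WT, 54.8 and 54.2 with M2, 45.4 and 46.7 with A457_G461del, 30.2 and 33.2 with Block13del and 29.6 and 28.4 with Block9del. The libraries of both wild-type proteins, delIDR1, DBDmut, the DDX4 hybrid, M2 and A457_G461del lay above every empty vector library. FZD7 rose with ARID1A WT (log2 fold change 1.03 ± 0.089, adjusted p = 1.2e-08), M2 (0.78 ± 0.089, adjusted p = 6.85e-07), ARID1B WT (0.72 ± 0.090, adjusted p = 2.5e-06) and DBDmut (0.66 ± 0.090, adjusted p = 1.03e-05). It also rose with A457_G461del (0.54 ± 0.090, adjusted p = 0.000116) and by 0.34 with delIDR1 and the DDX4 hybrid. Against own pairs, in which replicates 3 and 4 lay lower by -0.39 ± 0.064, adjusted p = 1.04e-05 on the log2 scale, CBR was called lower (-0.33 ± 0.061, adjusted p = 3.99e-05). Its call lower with AQGscram (-0.28) was lost without AQGscram replicate 1 or 2 or empty vector replicate 1 or 2 (adjusted p of 0.0965 to 0.148) and against replicates 3 and 4 alone (-0.07, adjusted p = 0.43).

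FZD8 was near its lower limit in most groups, at 0.351 and 0.7497 CPM with ARID1A WT, 0.2200 and 0.2797 with CBR, 0.218 and 0.0898 with delIDR1 and 0.192 and 0.369 with DBDmut. It was at 0.0762 and 0.106 CPM with the DDX4 hybrid, 0.181 and 0.0397 with AQGscram and 0.127 and 0 with 42YS, against 0.136, 0.135, 0.0654 and 0.111 CPM with the empty vector. ARID1B constructs gave 1.15 and 1.32 CPM with ARID1B WT, 0.191 and 0.312 with M2, 0.0815 and 0.0392 with A457_G461del, 0.0525 and 0.08298 with Block13del and 0 and 0.1304 with Block9del. The 2 ARID1B WT libraries were the highest of the 28. FZD8 rose with ARID1B WT (log2 fold change 3.36 ± 0.51, adjusted p = 2.77e-05) and ARID1A WT (2.24 ± 0.60, adjusted p = 0.00479), the call with ARID1A WT being lost without ARID1A WT replicate 2 (adjusted p = 0.181). FZD9, a receptor gene first known from brain, was at 2.400 and 3.23 CPM with ARID1A WT, 3.21 and 3.31 with CBR, 4.23 and 4.04 with delIDR1 and 2.64 and 2.91 with DBDmut. It was at 2.55 and 2.497 CPM with the DDX4 hybrid, 2.08 and 2.82 with AQGscram and 1.83 and 1.65 with 42YS, against 1.09, 1.17, 2.62 and 2.06 CPM with the empty vector. ARID1B constructs gave 2.09 and 1.46 CPM with ARID1B WT, 2.102 and 2.09 with M2, 1.79 and 2.15 with A457_G461del, 2.15 and 2.07 with Block13del and 1.98 and 2.35 with Block9del. Its empty vector replicates 3 and 4 lay above replicates 1 and 2 (1.04 ± 0.24, adjusted p = 0.000596), and the 2 pairs did not overlap. FZD9 was called higher with the 4 set 1 constructs of ARID1A, most with delIDR1 (log2 fold change 1.297 ± 0.24, adjusted p = 0.000176), and by more against their own pair, from 1.29 with DBDmut to 1.87 with delIDR1. The calls with ARID1A WT and DBDmut were lost against replicates 3 and 4 alone (0.30, adjusted p = 0.207 for ARID1A WT; 0.26, adjusted p = 0.298 for DBDmut). They were also lost without ARID1A WT replicate 2 or empty vector replicate 1 or 2 (adjusted p of 0.0555 to 0.284) for ARID1A WT and without DBDmut replicate 1 or 2 or empty vector replicate 1 or 2 (adjusted p of 0.082 to 0.18) for DBDmut.

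FZD1, FZD2, FZD3 and FZD5 moved by less than 2-fold in all 12 comparisons. FZD3, a receptor of the planar polarity route, was lower with 5 constructs, among them both wild-type proteins (-0.27 with ARID1A WT and -0.25 with ARID1B WT), and higher with Block13del (0.25). Those 3 calls were lost without ARID1A WT replicate 2 (adjusted p = 0.231), without ARID1B WT replicate 1 or 2 (adjusted p of 0.104 to 0.112) and without Block13del replicate 1 (adjusted p = 0.253). FZD5 was higher with ARID1A WT (log2 fold change 0.60 ± 0.081, adjusted p = 5.22e-06), M2 (0.44 ± 0.081, adjusted p = 0.000193), DBDmut and delIDR1, and lower with the 3 set 3 mutants of ARID1B. FZD1 was higher with delIDR1, DBDmut and most with the DDX4 hybrid (log2 fold change 0.65 ± 0.080, adjusted p = 4.46e-06), and lower with ARID1B WT (-0.32 ± 0.088, adjusted p = 0.00653), a call lost without ARID1B WT replicate 1 (adjusted p = 0.0524). Against the own pair FZD1 was also called higher with CBR (0.28 ± 0.083, adjusted p = 0.00584). FZD2 depended on the choice of control. It was at 33.8 and 36.3 CPM with ARID1A WT, 35.9 and 33.7 with CBR, 33.4 and 35.7 with delIDR1 and 40.6 and 40.7 with DBDmut, against 21.9, 22.97, 47.4 and 47.5 CPM with the empty vector. Against all 4 empty vector libraries it was called with none of the 12 constructs, at log2 fold changes of -0.15 to 0.28. Empty vector replicates 3 and 4 were higher than replicates 1 and 2 by 1.08 ± 0.074, adjusted p = 2.83e-12. FZD2 was higher than the own pair with ARID1A WT (0.65 ± 0.075, adjusted p = 4.01e-08), CBR, delIDR1 and DBDmut, and lower than the own pair with the DDX4 hybrid (-0.46 ± 0.069, adjusted p = 3.89e-06), ARID1B WT and M2.

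**Figure D3:**
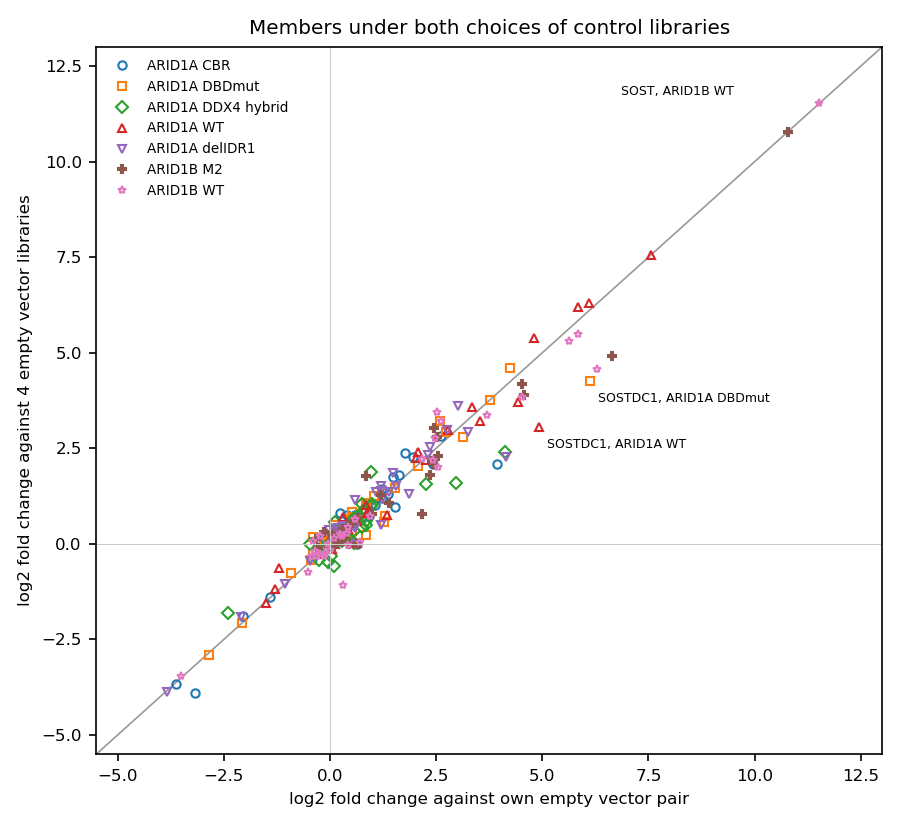
Fitted log2 fold change of each tested member against all 4 empty vector libraries (y axis) and against the own empty vector pair (x axis), for the 7 constructs of strand sets 1 and 2; the line marks equal values. Most points lie near the line, SOSTDC1 with ARID1A WT and DBDmut lies to its right, and the far right points are SOST, whose fitted values against 0 reads depend on the prior count.

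The co-receptors LRP4, LRP5, LRP6 and RYK were measured at group means of 38.7 CPM or more and moved by less than 2-fold. LRP4, which anchors sclerostin, was higher with 9 constructs, by 0.37 to 0.80, most with ARID1A WT (log2 fold change 0.80 ± 0.065, adjusted p = 4.4e-09). LRP5 was higher with ARID1A WT (log2 fold change 0.39 ± 0.059, adjusted p = 1.92e-05), M2 (0.35 ± 0.059, adjusted p = 6.57e-05), CBR, ARID1B WT and DBDmut, and lower with all 5 constructs of set 3, least with A457_G461del (-0.24) and most with Block13del (-0.43). The A457_G461del call was lost without A457_G461del replicate 1 (adjusted p = 0.0764). LRP6 was higher with CBR (log2 fold change 0.25 ± 0.10, adjusted p = 0.046) and ARID1B WT (0.28 ± 0.10, adjusted p = 0.0362) alone of the 12. Its empty vector pairs differed (-0.25 ± 0.095, adjusted p = 0.0264). Against own pairs CBR was not called (0.14 ± 0.093, adjusted p = 0.217), while the DDX4 hybrid (0.30 ± 0.095, adjusted p = 0.00971) and M2 (0.33 ± 0.095, adjusted p = 0.00463) were called higher beside ARID1B WT (0.41 ± 0.095, adjusted p = 0.000703). The calls against all 4 libraries were lost without CBR replicate 1 or 2 or empty vector replicate 3 or 4 (adjusted p of 0.0983 to 0.263) for CBR and without ARID1B WT replicate 1 or 2 or empty vector replicate 3 or 4 (adjusted p of 0.0702 to 0.239) for ARID1B WT. RYK, a receptor kinase without activity of its own, changed by at most 0.23.

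ROR1, a receptor of WNT5A, was at 0.8196 and 0.609 CPM with ARID1A WT, 0.04400 and 0.2797 with CBR, 0.0873 and 0.225 with delIDR1 and 0.4801 and 0.231 with DBDmut. It was at 0.7998 and 0.563 CPM with the DDX4 hybrid, 0.272 and 0.397 with AQGscram and 0.255 and 0.288 with 42YS, against 0.408, 0.944, 0.654 and 0.3902 CPM with the empty vector. ARID1B constructs gave 0.604 and 0.142 CPM with ARID1B WT, 2.87 and 2.63 with M2, 0.937 and 0.509 with A457_G461del, 0.629 and 0.415 with Block13del and 0.543 and 0.261 with Block9del. Both M2 libraries lay above all others. ROR1 rose with M2 (log2 fold change 2.18 ± 0.38, adjusted p = 0.000113) and was called lower with delIDR1 (-1.92 ± 0.65, adjusted p = 0.0187) and CBR (-1.89 ± 0.65, adjusted p = 0.0192). The call with delIDR1 was lost without delIDR1 replicate 1 or empty vector replicate 2 (adjusted p of 0.0555 to 0.172), and that with CBR without CBR replicate 1 or empty vector replicate 2 (adjusted p of 0.0584 to 0.237). ROR2, its relative, was called with the DDX4 hybrid (log2 fold change 1.59 ± 0.50, adjusted p = 0.0165) at a group mean of 0.513 CPM, against 0.154 CPM with the empty vector, a call lost without DDX4 hybrid replicate 1 or 2 (adjusted p of 0.0635 to 0.0884). Against own pairs ROR2 was higher with the hybrid (2.98 ± 0.73, adjusted p = 0.00141) and also with M2 (2.16 ± 0.84, adjusted p = 0.034). ROR1 kept its calls against own pairs, lower with CBR (-2.06 ± 0.67, adjusted p = 0.01) and delIDR1 (-2.09 ± 0.67, adjusted p = 0.0097) and higher with M2 (2.41 ± 0.41, adjusted p = 1.57e-05).

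Secreted inhibitors moved in both directions. DKK1 fell with both wild-type proteins and with 3 of the 4 other ARID1A constructs of sets 1 and 2, whereas DKK3, SOST and SOSTDC1 rose with both. DKK1 and SOST are shown by their upstream letters as the inhibitors with opposite changes under the wild-type proteins, in the same window and build, at chr10:52314031-52314280 (plus strand) and chr17:43758792-43759041 (minus strand). Capitals in DKK1 mark, from the left, the TCF/LEF letters CTTTGTT, the TEAD letters GGAATG and the TATA letters TATAAA, which begin 76, 50 and 30 bases before the start; SOST held none of the 4 motifs.
DKK1: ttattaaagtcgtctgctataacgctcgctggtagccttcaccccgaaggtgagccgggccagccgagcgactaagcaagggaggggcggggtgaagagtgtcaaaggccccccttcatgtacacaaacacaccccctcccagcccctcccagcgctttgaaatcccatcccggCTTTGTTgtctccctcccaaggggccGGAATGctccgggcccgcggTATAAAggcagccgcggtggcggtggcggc
SOST: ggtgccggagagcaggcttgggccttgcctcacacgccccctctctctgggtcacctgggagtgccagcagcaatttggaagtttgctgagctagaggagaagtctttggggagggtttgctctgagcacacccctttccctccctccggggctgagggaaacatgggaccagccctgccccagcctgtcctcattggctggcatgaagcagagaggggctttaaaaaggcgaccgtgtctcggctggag
They hold 18 and 6 CG dinucleotides. DKK1 was the 1 member among the 37 with the TEAD letters and the 1 with the TCF/LEF letters.

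DKK1, which removes LRP6 from signalling, was at 2.05 and 3.05 CPM with ARID1A WT, 0.616 and 0.559 with CBR, 0.306 and 0.719 with delIDR1 and 0.9602 and 1.06 with DBDmut. It was at 11.1 and 11.96 CPM with the DDX4 hybrid, 10.1 and 11.7 with AQGscram and 5.22 and 5.602 with 42YS, against 7.57, 7.19, 7.26 and 8.36 CPM with the empty vector. ARID1B constructs gave 0.769 and 0.614 CPM with ARID1B WT, 11.5 and 12.9 with M2, 4.48 and 4.58 with A457_G461del, 5.25 and 6.64 with Block13del and 5.08 and 5.04 with Block9del. The libraries of ARID1A WT, CBR, delIDR1, DBDmut and ARID1B WT lay below, and those of the DDX4 hybrid, AQGscram and M2 above, every empty vector library. DKK1 fell with delIDR1 (log2 fold change -3.88 ± 0.22, adjusted p = 4.79e-11), DBDmut (-2.902 ± 0.20, adjusted p = 5.95e-10) and ARID1A WT (-1.56 ± 0.17, adjusted p = 3.41e-07), with CBR by -3.68 and with ARID1B WT by -3.46. It rose with M2 (0.69 ± 0.14, adjusted p = 0.000405) and the DDX4 hybrid (0.60 ± 0.14, adjusted p = 0.00182), also against their own pair (0.64 and 0.56). It was also lower with A457_G461del (-0.74 ± 0.15, adjusted p = 0.000727) and Block9del (-0.58 ± 0.15, adjusted p = 0.00472). Calls higher with AQGscram (0.52) and lower with 42YS (-0.49) were lost without AQGscram replicate 2 (adjusted p = 0.128) and without 42YS replicate 1 or 2 (adjusted p of 0.0722 to 0.143).

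DKK3, a DKK relative that is often silenced in tumours and does not act through LRP6 like DKK1, was at 3.04 and 3.89 CPM with ARID1A WT, 0.132 and 0.0932 with CBR, 0.0437 and 0.1797 with delIDR1 and 0.192 and 0.461 with DBDmut. It was at 0.0762 and 0.0352 CPM with the DDX4 hybrid, 0.0453 and 0.0397 with AQGscram and 0 and 0 with 42YS, against 0.0453, 0.0449, 0 and 0.0557 CPM with the empty vector. ARID1B constructs gave 1.703 and 1.79 CPM with ARID1B WT, 0.268 and 0.08903 with M2, 0.122 and 0.0392 with A457_G461del, 0 and 0.124 with Block13del and 0 and 0 with Block9del. ARID1A WT and ARID1B WT stood above all other groups, and the empty vector libraries held 3 reads together. Against those 3 reads DKK3 showed a ratio of 90.8 (95% counting interval 30.4 to 446) with ARID1A WT (adjusted p = 8.86e-09) and a ratio of 45.3 (95% counting interval 14.9 to 225) with ARID1B WT (adjusted p = 4.58e-07). It showed a ratio of 8.51 (95% counting interval 2.38 to 46.2) with DBDmut (adjusted p = 0.00583). The DBDmut call was lost without DBDmut replicate 2 (adjusted p = 0.145). The call with M2 (adjusted p = 0.046) was lost without M2 replicate 1 or empty vector replicate 1, 2, 3 or 4 (adjusted p of 0.0528 to 0.527) and against the own pair (adjusted p = 0.0933).

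SOST encodes sclerostin, which blocks LRP5 and LRP6 and is best known from bone. It had 1.35 and 0.797 CPM with ARID1A WT, 0 in both CBR libraries and at most 3 reads in the delIDR1 or DBDmut pair. The DDX4 hybrid, AQGscram, 42YS and the 4 empty vector libraries held 0 reads. ARID1B constructs gave 16.4 and 16.5 CPM with ARID1B WT, 9.71 and 9.93 with M2, 1.92 and 1.76 with A457_G461del, 0.525 and 0.249 with Block13del and 0 and 0 with Block9del. Against 3 counts over the empty vector group SOST was at least 425-fold higher with ARID1B WT (adjusted p = 9.82e-09) and at least 254-fold higher with M2 (adjusted p = 2.31e-08). It was at least 47.5-fold higher with A457_G461del (adjusted p = 6.47e-06), at least 26.9-fold higher with ARID1A WT (adjusted p = 3.01e-05) and at least 9.58-fold higher with Block13del (adjusted p = 0.00155). Every library of the ARID1B constructs other than Block9del thus held it.

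SOSTDC1, a relative of sclerostin that also binds BMP proteins, was at 11.4 and 12.2 CPM with ARID1A WT, 5.68 and 6.29 with CBR, 6.85 and 6.83 with delIDR1 and 25.5 and 28.8 with DBDmut. It was at 5.103 and 5.35 CPM with the DDX4 hybrid, 5.12 and 3.81 with AQGscram and 2.59 and 1.69 with 42YS, against 0.317, 0.4495, 2.62 and 2.73 CPM with the empty vector. ARID1B constructs gave 14.9 and 15.8 CPM with ARID1B WT, 4.32 and 5.48 with M2, 3.99 and 3.68 with A457_G461del, 3.305 and 2.24 with Block13del and 2.36 and 1.87 with Block9del. DBDmut had the highest libraries of all, followed by ARID1B WT and ARID1A WT. Empty vector replicates 3 and 4 lay above replicates 1 and 2 by 2.79 ± 0.36, adjusted p = 2.22e-07, so the size of each change depends on the control. Against all 4 libraries SOSTDC1 was called higher with 9 of the 12 constructs. It rose most with DBDmut (log2 fold change 4.26 ± 0.36, adjusted p = 1.88e-08), ARID1B WT (3.44 ± 0.38, adjusted p = 4.82e-07) and ARID1A WT (3.06 ± 0.39, adjusted p = 2.31e-06). Against own pairs the values were 6.12 ± 0.21, adjusted p = 9.25e-19 with DBDmut, 2.52 ± 0.17, adjusted p = 1.8e-12 with ARID1B WT and 4.92 ± 0.25, adjusted p = 2.49e-15 with ARID1A WT. It was also called higher against own pairs with CBR (3.94), delIDR1 (4.14), the DDX4 hybrid (0.96) and M2 (0.86). SFRP1, which binds ligands, was lower with DBDmut (log2 fold change -2.06 ± 0.54, adjusted p = 0.00594) and CBR (-1.401 ± 0.48, adjusted p = 0.0201) at group means of 0.141 and 0.225 CPM, against 0.607 CPM with the empty vector. These calls were lost without DBDmut replicate 2 (adjusted p = 0.0566) and without CBR replicate 1 or 2 or empty vector replicate 2 (adjusted p of 0.0558 to 0.132).

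**Figure D4:**
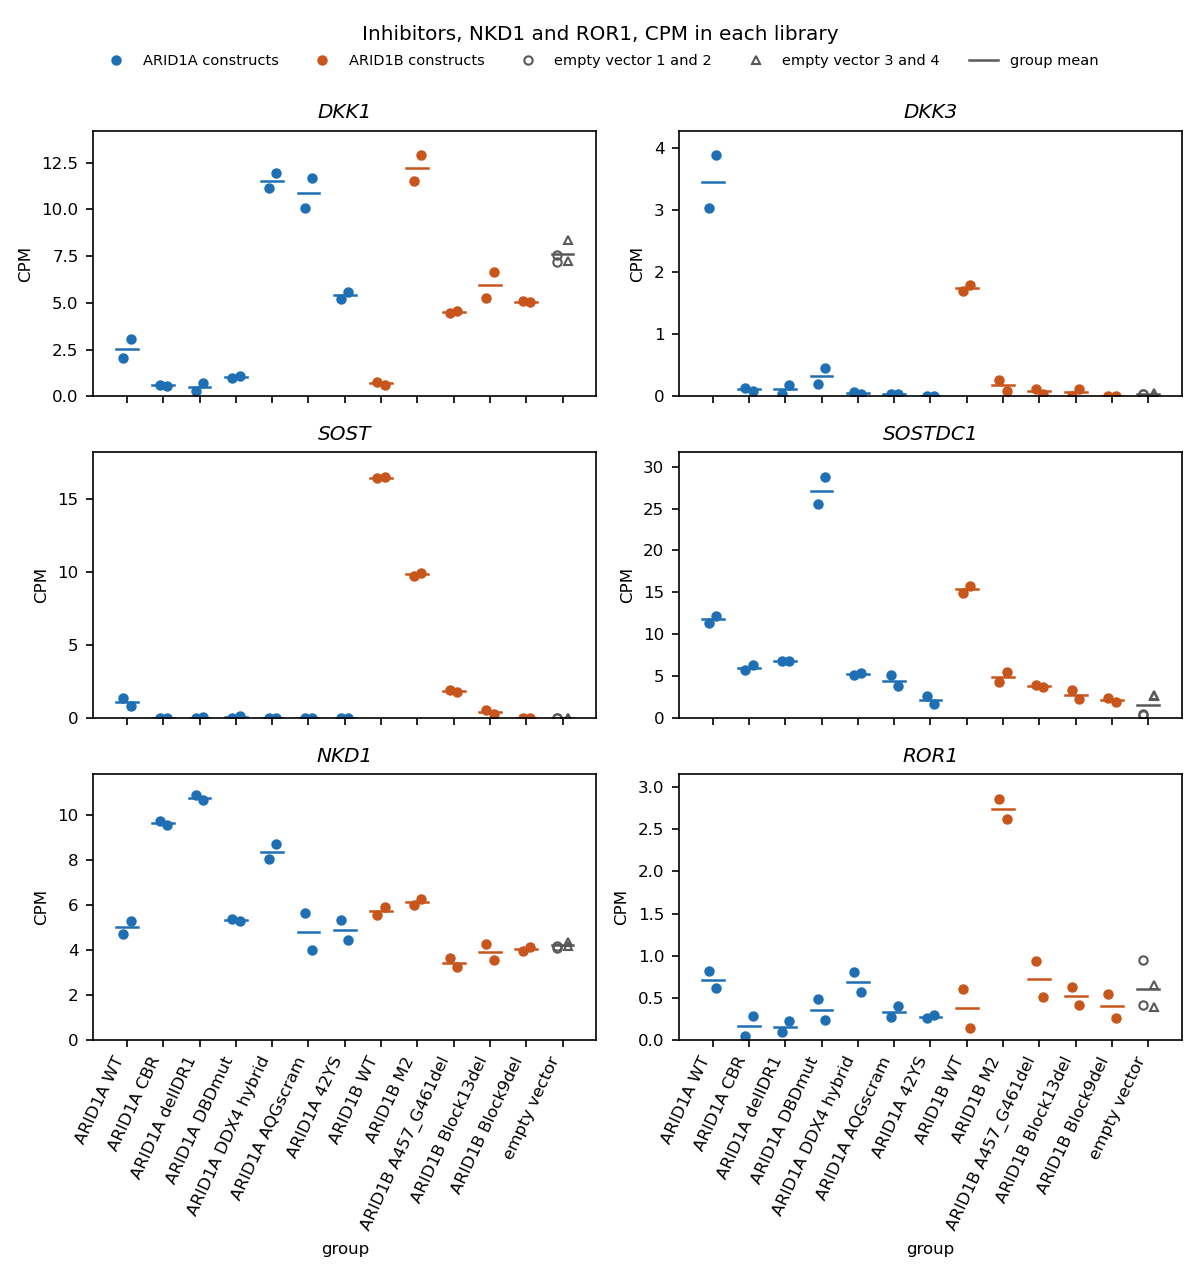
CPM of DKK1, DKK3, SOST, SOSTDC1, NKD1 and ROR1 in each library (points) with the group mean (line), for 12 constructs and the empty vector. DKK1 with M2 lies at 11.5 and 12.9 CPM and with ARID1B WT at 0.769 and 0.614 CPM, ROR1 is highest with M2, and SOSTDC1 is highest with DBDmut at 25.5 and 28.8 CPM.

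In the R-spondin axis, LGR6 and RSPO1 rose with LGR4 under the wild-type proteins from few reads. LGR6, an R-spondin receptor known from skin stem cells, was at 0.878 and 1.27 CPM with ARID1A WT, 0 and 0 with CBR, 0.0873 and 0.135 with delIDR1 and 0.04801 and 0.185 with DBDmut. It was at 0.0381 and 0 CPM with the DDX4 hybrid, 0.0906 and 0.0397 with AQGscram and 0.0425 and 0 with 42YS, against 0, 0.0899, 0.0654 and 0.167 CPM with the empty vector. ARID1B constructs gave 0.989 and 0.566 CPM with ARID1B WT, 0.688 and 0.668 with M2, 0.204 and 0.0392 with A457_G461del, 0 and 0 with Block13del and 0 and 0.0435 with Block9del. The libraries of ARID1A WT, ARID1B WT and M2 lay above all others. LGR6 rose with ARID1A WT (log2 fold change 3.71 ± 0.59, adjusted p = 6.05e-05), ARID1B WT (3.22 ± 0.63, adjusted p = 0.000548) and M2 (3.04 ± 0.62, adjusted p = 0.000707). RSPO1, a secreted R-spondin, had 1 read in the 4 empty vector libraries and group means of 0.755 CPM with ARID1A WT, 0.557 with M2 and 0.432 with ARID1B WT. Against that 1 read it showed a ratio of 60.5 (95% counting interval 10.1 to 2470.0) with ARID1A WT (adjusted p = 1.13e-05) and a ratio of 43.1 (95% counting interval 7.100 to 1760.0) with M2 (adjusted p = 5.16e-05). It showed a ratio of 33.5 (95% counting interval 5.24 to 1400.0) with ARID1B WT (adjusted p = 0.000317). RSPO1 was also called higher with delIDR1 (a ratio of 17.2 (95% counting interval 2.44 to 745), adjusted p = 0.00486), DBDmut (adjusted p = 0.0238) and A457_G461del (adjusted p = 0.0321). The call of delIDR1 was lost without delIDR1 replicate 1 (adjusted p = 0.0885) and kept against the own pair (adjusted p = 0.0241). That of DBDmut was lost without DBDmut replicate 1 or empty vector replicate 2 (adjusted p of 0.0565 to 0.576) and against the own pair (adjusted p = 0.0667), and that of A457_G461del without A457_G461del replicate 1 or 2 or empty vector replicate 2, 3 or 4 (adjusted p of 0.0532 to 0.143). ZNRF3, the ligase that removes FZD receptors, was higher with the 4 set 1 constructs by 0.27 to 0.34, lower with ARID1B WT (log2 fold change -0.28 ± 0.11, adjusted p = 0.0423), and called higher against its own pair with none of those 4 constructs. Against the own pair it was called higher with the DDX4 hybrid (0.33 ± 0.10, adjusted p = 0.00848) and not called with ARID1B WT (-0.11 ± 0.11, adjusted p = 0.424). The ARID1B WT call was lost without ARID1B WT replicate 1 or 2 or empty vector replicate 1 or 2 (adjusted p of 0.0951 to 0.178). Its empty vector pairs differed by -0.30 ± 0.10, adjusted p = 0.0168 on the log2 scale.

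Of the feedback genes, AXIN2 was called with neither wild-type protein, and NKD1 rose most with constructs other than the wild-type proteins. AXIN2, the scaffold of the destruction complex that beta-catenin is known to induce, was at 1.41 and 1.83 CPM with ARID1A WT, 1.89 and 2.28 with CBR, 1.75 and 1.66 with delIDR1 and 1.34 and 1.15 with DBDmut. It was at 1.03 and 1.58 CPM with the DDX4 hybrid, 0.906 and 0.755 with AQGscram and 0.849 and 0.824 with 42YS, against 1.496, 1.26, 0.8502 and 1.28 CPM with the empty vector. ARID1B constructs gave 0.824 and 1.13 CPM with ARID1B WT, 1.300 and 1.29 with M2, 0.815 and 0.588 with A457_G461del, 0.577 and 0.664 with Block13del and 0.349 and 0.565 with Block9del. The libraries of ARID1A WT and ARID1B WT lay near the empty vector, and neither was called (log2 fold change 0.39 ± 0.24, adjusted p = 0.19 with ARID1A WT and -0.33 ± 0.26, adjusted p = 0.316 with ARID1B WT). AXIN2 was lower with Block9del (log2 fold change -1.44 ± 0.28, adjusted p = 0.00063) and Block13del (-0.98 ± 0.27, adjusted p = 0.0083), the call of Block13del being lost without Block13del replicate 1 (adjusted p = 0.0791). Calls with A457_G461del (-0.82) and, upwards, with CBR (0.75) were lost without A457_G461del replicate 2 or empty vector replicate 1 (adjusted p of 0.054 to 0.206) and without CBR replicate 2 (adjusted p = 0.111).

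NKD1, which binds Dishevelled and dampens signalling, was at 4.68 and 5.29 CPM with ARID1A WT, 9.72 and 9.56 with CBR, 10.9 and 10.6 with delIDR1 and 5.38 and 5.26 with DBDmut. It was at 8.04 and 8.69 CPM with the DDX4 hybrid, 5.62 and 3.97 with AQGscram and 5.31 and 4.45 with 42YS, against 4.17, 4.09, 4.19 and 4.35 CPM with the empty vector. ARID1B constructs gave 5.55 and 5.900 CPM with ARID1B WT, 6.001 and 6.28 with M2, 3.63 and 3.21 with A457_G461del, 4.25 and 3.53 with Block13del and 3.95 and 4.13 with Block9del. The libraries of delIDR1, CBR and the DDX4 hybrid lay above all others, and those of A457_G461del below every empty vector library. NKD1 rose with delIDR1 (log2 fold change 1.36 ± 0.11, adjusted p = 1.17e-08), CBR (1.199 ± 0.11, adjusted p = 5.74e-08), the DDX4 hybrid (0.99 ± 0.11, adjusted p = 1.76e-06) and M2 (0.55 ± 0.12, adjusted p = 0.000889), and was not called with ARID1A WT (0.25 ± 0.12, adjusted p = 0.11). Its calls with ARID1B WT (0.45) and DBDmut (0.34) were lost without ARID1B WT replicate 2 (adjusted p = 0.0748) and without DBDmut replicate 1 or 2 or empty vector replicate 1 or 2 (adjusted p of 0.0614 to 0.163).

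Other genes of the pathway were counted in 4 lists. Of 10 tested genes that process or modulate ligands outside the cell, 4 were higher and 1 lower with ARID1A WT, and 4 and 1 with ARID1B WT (median log2 fold changes 0.21 and 0.09), where 21.1% and 23.5% of all genes were called higher and lower with ARID1A WT and 19.2% and 23.9% with ARID1B WT. TRABD2B, known as TIKI2, an inactivator of WNT ligands, averaged 10.1 ± 1.14 CPM with ARID1A WT and 14.6 ± 0.0169 CPM with ARID1B WT (SD, n = 2 each), against 0.331 ± 0.141 CPM with the empty vector (SD, n = 4). It rose with both (4.85 ± 0.24, adjusted p = 3.11e-12 with ARID1A WT; 5.37 ± 0.24, adjusted p = 5.44e-13 with ARID1B WT). TSPAN12, the tetraspanin partner of FZD4, averaged 2.68 ± 0.0157 CPM with ARID1A WT and 2.97 ± 0.534 CPM with ARID1B WT, against 0.146 ± 0.0877 CPM with the empty vector, and rose by 4.08 ± 0.31, adjusted p = 1.61e-09 and 4.22 ± 0.30, adjusted p = 1.15e-09 on the log2 scale. The glypican GPC4 rose by 1.62 with ARID1A WT and 1.54 with ARID1B WT, and KREMEN1, a receptor of DKK proteins, by 0.80 and 0.85. With M2 the rises of these 4 were 5.48 for TRABD2B, 3.902 for TSPAN12, 1.87 for GPC4 and 0.84 for KREMEN1, all called.

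Of 29 tested genes of the beta-catenin machinery, 9 were higher and 5 lower with ARID1A WT and 6 and 5 with ARID1B WT, with medians of 0.01 and -0.06. Of all genes 21.1% and 23.5% were called higher and lower with ARID1A WT and 19.2% and 23.9% with ARID1B WT, so the ARID1B WT counts lie near the background. CTNNB1, the gene of beta-catenin itself, rose with ARID1A WT (0.51 ± 0.044, adjusted p = 1.07e-08) and ARID1B WT (0.53 ± 0.044, adjusted p = 1.02e-08), and its co-activator partner BCL9L by 0.53 and 0.34. The beta-catenin antagonist CBY1 fell with ARID1A WT (-0.70 ± 0.088, adjusted p = 1.84e-06) and ARID1B WT (-0.58 ± 0.087, adjusted p = 2.24e-05), as did the scaffold AXIN1 (-0.49 and -0.64). Of 10 tested genes of planar polarity and related routes, 6 were higher and 1 lower with ARID1A WT and 3 and 1 with ARID1B WT, with medians of 0.48 and 0.19, over the same shares of all genes. PTK7 (0.67 with ARID1A WT and 0.69 with ARID1B WT), CELSR2 (1.03 and 0.58) and CELSR1 (0.46 and 0.31), all cell surface proteins of that route, were higher with both. INVS, a switch protein of cilia, was lower with ARID1A WT (-0.40 ± 0.097, adjusted p = 0.00258) and not called with ARID1B WT (-0.16 ± 0.096, adjusted p = 0.18).

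Genes known as beta-catenin targets, 11 tested of which 4 are also members, moved in both directions. With ARID1A WT 4 were higher and 4 lower, and with ARID1B WT 4 and 3, with medians of 0.25 and -0.14, where 21.1% and 23.5% of all genes were called with ARID1A WT and 19.2% and 23.9% with ARID1B WT. CCND1, which encodes cyclin D1, averaged 46.8 ± 1.12 CPM with ARID1A WT and 35.2 ± 1.47 CPM with ARID1B WT, against 1.85 ± 0.341 CPM with the empty vector. Its log2 fold changes were 4.65 ± 0.11, adjusted p = 1.71e-17 and 4.24 ± 0.11, adjusted p = 1.24e-16. BMP4, a secreted BMP ligand, rose with ARID1A WT (2.05 ± 0.23, adjusted p = 5.48e-07) and ARID1B WT (1.42 ± 0.25, adjusted p = 0.000135), and TCF7, a factor that beta-catenin binds, by 0.46 and 0.29. MYC, the growth regulator, fell with ARID1A WT (-1.04 ± 0.13, adjusted p = 1.64e-06) and ARID1B WT (-0.89 ± 0.13, adjusted p = 1.38e-05).

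The ARID1A mutants of set 1 were set against ARID1A WT within that set. CBR had 4 members higher and 15 lower than ARID1A WT, against 22.2% and 25.3% of all genes, and delIDR1 had 3 and 15, against 17.4% and 22.7%. Both had far less of several genes that ARID1A WT raised. With CBR, LGR6 and SOST had 0 reads, at least 16.1-fold lower than the 42 LGR6 reads and at least 15.3-fold lower than the 40 SOST reads of ARID1A WT. CBR also had less WNT7B (log2 fold change -5.45 ± 0.48, adjusted p = 3.15e-08), DKK3 (-4.88 ± 0.52, adjusted p = 7.84e-07), RSPO1 (-3.02 ± 0.66, adjusted p = 0.0011) and SFRP1 (-1.66 ± 0.53, adjusted p = 0.0149). For delIDR1 the lower members were led by SOST, with a ratio of 0.0213 (95% counting interval 0.000525 to 0.125) from 1 read. They included DKK3 (-4.91 ± 0.52, adjusted p = 1.2e-06), WNT7B (-4.36 ± 0.42, adjusted p = 1.74e-07), LGR6 (-3.23 ± 0.66, adjusted p = 0.00102) and RSPO1 (-1.78 ± 0.55, adjusted p = 0.0162). DKK1, which ARID1A WT lowered, was lower still with CBR (-2.12 ± 0.26, adjusted p = 2.48e-06) and delIDR1 (-2.33 ± 0.27, adjusted p = 1.72e-06), and NKD1 was higher with CBR (0.95 ± 0.14, adjusted p = 1.35e-05) and delIDR1 (1.104 ± 0.13, adjusted p = 3.27e-06). ROR1 was called lower with CBR (-2.12 ± 0.71, adjusted p = 0.0191) and delIDR1 (-2.15 ± 0.70, adjusted p = 0.0206), and FZD8 with delIDR1 (-1.83 ± 0.66, adjusted p = 0.0324). The ROR1 calls were lost without CBR replicate 1 or ARID1A WT replicate 1 (adjusted p of 0.0917 to 0.189) for CBR and without delIDR1 replicate 1 or ARID1A WT replicate 1 (adjusted p of 0.1 to 0.153) for delIDR1. The FZD8 call was lost without delIDR1 replicate 2 or ARID1A WT replicate 2 (adjusted p of 0.205 to 0.353). Those of SFRP1 with CBR and RSPO1 with delIDR1 were lost without CBR replicate 2 or ARID1A WT replicate 2 (adjusted p of 0.091 to 0.0954) and without delIDR1 replicate 2 or ARID1A WT replicate 2 (adjusted p of 0.145 to 0.222).

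DBDmut had 0 members higher and 10 lower than ARID1A WT, against 0.999% and 4.62% of all genes. The 0 higher members became 4 at an unadjusted p under 0.05 in edgeR and were 0 by DESeq2. SOSTDC1 was not called although its libraries did not overlap, at 25.5 and 28.8 CPM with DBDmut and 11.4 and 12.2 CPM with ARID1A WT. The fit shares its spread with the empty vector, whose pairs differ in SOSTDC1, and how far this bears on the missing call was not tested. A fit of these groups alone called 16 members in both directions together, a count that was not split by direction. The 0 members called higher do not show that no member was higher, and the 16 do not show that any was. Lower with DBDmut were WNT4 (log2 fold change -2.497 ± 0.27, adjusted p = 3.51e-06), WNT6 (-2.28 ± 0.24, adjusted p = 2.58e-06) and DKK3 (-3.38 ± 0.43, adjusted p = 5.89e-05). So were SFRP1 (-2.32 ± 0.59, adjusted p = 0.0211), RSPO1 (-2.19 ± 0.59, adjusted p = 0.0357) and SOST, with a ratio of 0.0678 (95% counting interval 0.0134 to 0.213) from 3 reads. LGR4 (-0.41 ± 0.15, adjusted p = 0.123) and FZD4 (-0.17 ± 0.11, adjusted p = 0.508) were not called. WNT4 was 0.494 ± 0.0193 CPM with DBDmut, 1.67 ± 0.252 CPM with CBR and 1.86 ± 0.226 CPM with delIDR1 (SD, n = 2 each), against 2.82 ± 0.0736 CPM with ARID1A WT. Calls of LGR6 (-3.15 ± 0.67, adjusted p = 0.00703) and WNT7B (-1.598 ± 0.32, adjusted p = 0.00308) were lost without DBDmut replicate 1 or ARID1A WT replicate 2 (adjusted p of 0.0971 to 0.13) for LGR6 and without DBDmut replicate 1 or ARID1A WT replicate 1 (adjusted p of 0.0604 to 0.0803) for WNT7B. The call of SFRP1 was lost without DBDmut replicate 1 or 2 or ARID1A WT replicate 1 or 2 (adjusted p of 0.0571 to 0.174) and that of RSPO1 without DBDmut replicate 2 or ARID1A WT replicate 2 (adjusted p of 0.336 to 0.432). The 10 called members were 6 without DBDmut replicate 1 and 5 without ARID1A WT replicate 2.

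The DDX4 hybrid and ARID1A WT lie in different strand sets. Compared directly, 6 members were higher and 16 lower with the hybrid, against 16.8% and 19.6% of all genes. As a difference of the 2 responses to their own pairs, 5 were higher and 11 lower, against 25.3% and 25.2%. Lower with the hybrid in both tests were LGR4 (-2.16 ± 0.15, adjusted p = 1.47e-09 directly; -2.77 ± 0.13, adjusted p = 2.81e-15 as a difference of responses) and WNT4 (-3.08 ± 0.27, adjusted p = 4.1e-08; -2.503 ± 0.74, adjusted p = 0.0107). So were WNT6 (-2.37 ± 0.23, adjusted p = 1.83e-07; -1.95 ± 0.36, adjusted p = 6.69e-05) and FZD4 (-1.16 ± 0.11, adjusted p = 9.15e-08; -1.27 ± 0.16, adjusted p = 1.89e-07). LGR6, with 1 read under the hybrid and 42 under ARID1A WT, showed a ratio of 0.0167 (95% counting interval 0.000414 to 0.0984) and was also lower as a difference of responses (-6.83 ± 1.72, adjusted p = 0.0019). DKK1 was higher with the hybrid in both tests (2.16 ± 0.18, adjusted p = 1.85e-08; 2.06 ± 0.21, adjusted p = 7.7e-09). SOST had 0 reads with the hybrid, at least 19.00-fold lower than with ARID1A WT, and DKK3 had 3 reads, a ratio of 0.0156 (95% counting interval 0.00318 to 0.0466). Calls of SOST, DKK3 (-5.35 ± 2.58, adjusted p = 0.0891) and WNT7B (-4.63 ± 0.42, adjusted p = 4.76e-08; -3.58 ± 2.14, adjusted p = 0.171) were not kept as a difference of responses, for which the own pairs held few or no reads. The same was true of FZD8 (-2.56 ± 0.69, adjusted p = 0.00697; -2.02 ± 1.39, adjusted p = 0.241), RSPO1 (-3.002 ± 0.62, adjusted p = 0.000996; -0.68 ± 1.76, adjusted p = 0.785) and WNT11 (-2.37 ± 0.73, adjusted p = 0.0159; -1.52 ± 1.65, adjusted p = 0.47). Directly, FZD8 and WNT11 also lost their calls without DDX4 hybrid replicate 1 or ARID1A WT replicate 2 (adjusted p of 0.0576 to 0.155) and without DDX4 hybrid replicate 1 or 2 or ARID1A WT replicate 1 or 2 (adjusted p of 0.0534 to 0.107).

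Between the wild-type proteins, again of different strand sets, 8 members were higher and 2 lower with ARID1A WT than with ARID1B WT, against 8.96% and 4.56% of all genes. As a difference of responses to own pairs there were 8 and 2, against 22.9% and 18.7%. WNT4 was lower with ARID1A WT in both tests (-1.92 ± 0.20, adjusted p = 2.44e-06 directly; -2.49 ± 0.60, adjusted p = 0.00178 as a difference of responses), and DKK1 was higher in both (1.900 ± 0.26, adjusted p = 7.42e-05; 2.001 ± 0.33, adjusted p = 1.71e-05). The co-receptor LRP4 (0.64 ± 0.076, adjusted p = 1.48e-05; 0.78 ± 0.094, adjusted p = 2.15e-07) and FZD5 (0.61 ± 0.096, adjusted p = 0.000276; 0.66 ± 0.13, adjusted p = 0.00026) were also higher in both. WNT7B was higher only when compared directly (2.37 ± 0.34, adjusted p = 0.000132; 1.32 ± 1.97, adjusted p = 0.636). SOST was 1.35 and 0.797 CPM with ARID1A WT and 16.4 and 16.5 CPM with ARID1B WT, a difference called directly and not as a difference of responses (adjusted p = 1.0), for which the empty vector held 0 reads. SOSTDC1, FZD2 and FZD9, which differed between the empty vector pairs, were called only as a difference of responses, for example SOSTDC1 (-0.39 ± 0.37, adjusted p = 0.548 directly; 2.402 ± 0.39, adjusted p = 1.45e-05 as a difference of responses). FZD4 was called in neither (-0.02 ± 0.11, adjusted p = 0.925; 0.09 ± 0.15, adjusted p = 0.684). Without ARID1A WT replicate 2 the 10 called members were 6.

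M2 and ARID1B WT share a strand set. M2 had 4 members higher and 5 lower, against 8.31% and 6.01% of all genes. DKK1 was at 11.5 and 12.9 CPM with M2, against 0.769 and 0.614 CPM with ARID1B WT (log2 fold change 4.14 ± 0.22, adjusted p = 2.61e-10). ROR1 was higher as well, at 2.87 and 2.63 CPM against 0.604 and 0.142 CPM (log2 fold change 2.92 ± 0.52, adjusted p = 0.000716). DKK3 (-3.21 ± 0.50, adjusted p = 0.000294) and WNT4 (-1.32 ± 0.19, adjusted p = 8.34e-05) were lower with M2. LGR4 (0.04 ± 0.15, adjusted p = 0.896), WNT6 (0.11 ± 0.22, adjusted p = 0.81) and WNT7B (0.06 ± 0.39, adjusted p = 0.957) were not called, while FZD4 was lower (-0.95 ± 0.11, adjusted p = 6.3e-06). Lower calls of FZD8 (-2.299 ± 0.52, adjusted p = 0.00535) and SOSTDC1 (-1.66 ± 0.40, adjusted p = 0.00745) were lost without M2 replicate 1 or ARID1B WT replicate 2 (adjusted p of 0.0527 to 0.0903) for FZD8 and without M2 replicate 1 or ARID1B WT replicate 2 (adjusted p of 0.0556 to 0.101) for SOSTDC1. ARID1B RNA was 4250.0 ± 96.2 CPM with M2 and 3597 ± 225 CPM with ARID1B WT.

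The other ARID1B mutants, all of set 3, were compared with each other. The group means of 15 of the 34 tested members stood in the order A457_G461del, Block13del, Block9del, those of 5, among them NKD1, stood in the opposite order, and those of 14, among them DKK1 and WNT6, in neither. How many of all genes stood in each order was not counted, so the 15 are a description only. Some of the 15 rest on few reads, such as DKK3 with 4, 3 and 0. Of the 15, LGR4 averaged 67.5 ± 1.498 CPM with A457_G461del, 38.1 ± 3.18 CPM with Block13del and 25.5 ± 0.753 CPM with Block9del (SD, n = 2 each). WNT4 averaged 1.68 ± 0.122 CPM, 0.839 ± 0.222 CPM and 0.167 ± 0.0714 CPM with A457_G461del, Block13del and Block9del, and SOST 1.84 ± 0.108 CPM, 0.387 ± 0.195 CPM and 0 CPM. ARID1B RNA stood in the same order, at 2236 ± 32.9 CPM with A457_G461del, 883 ± 7.14 CPM with Block13del and 344 ± 0.277 CPM with Block9del, against 98.03 ± 6.54 CPM with the empty vector. Between Block13del and Block9del the LGR4 difference was not called (log2 fold change 0.58 ± 0.15, adjusted p = 0.187). The part of the construct's RNA level in these differences was not tested.

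A457_G461del had 6 members higher and 1 lower than Block9del, against 8.2% and 4.39% of all genes. These included SOST, at least 29.9-fold higher, WNT4 (log2 fold change 3.31 ± 0.33, adjusted p = 8.16e-07), LGR4 (1.404 ± 0.15, adjusted p = 2.5e-06), FZD4 (0.91 ± 0.11, adjusted p = 1.17e-05) and FZD7 (0.67 ± 0.11, adjusted p = 0.000213). A457_G461del had 5 higher and 1 lower than Block13del, against 3.59% and 1.89%, among them LGR4 (0.83 ± 0.15, adjusted p = 0.00192) and FZD4 (0.64 ± 0.11, adjusted p = 0.0014). The SOST call in that comparison (2.28 ± 0.44, adjusted p = 0.0106) was lost without A457_G461del replicate 1 or 2 or Block13del replicate 2 (adjusted p of 0.0544 to 0.129), and the 6 called members were 3 without either A457_G461del library or Block13del replicate 1. Block13del had 1 member higher and 0 lower than Block9del, against 0.471% and 0.0%, where the 0 lower became 2 at an unadjusted p under 0.05 in edgeR and were 0 by DESeq2. The 1 higher member was WNT4 (2.33 ± 0.37, adjusted p = 0.00245), and the call was lost without Block13del replicate 2 or Block9del replicate 1 (adjusted p of 0.217 to 0.253).

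**Figure D5:**
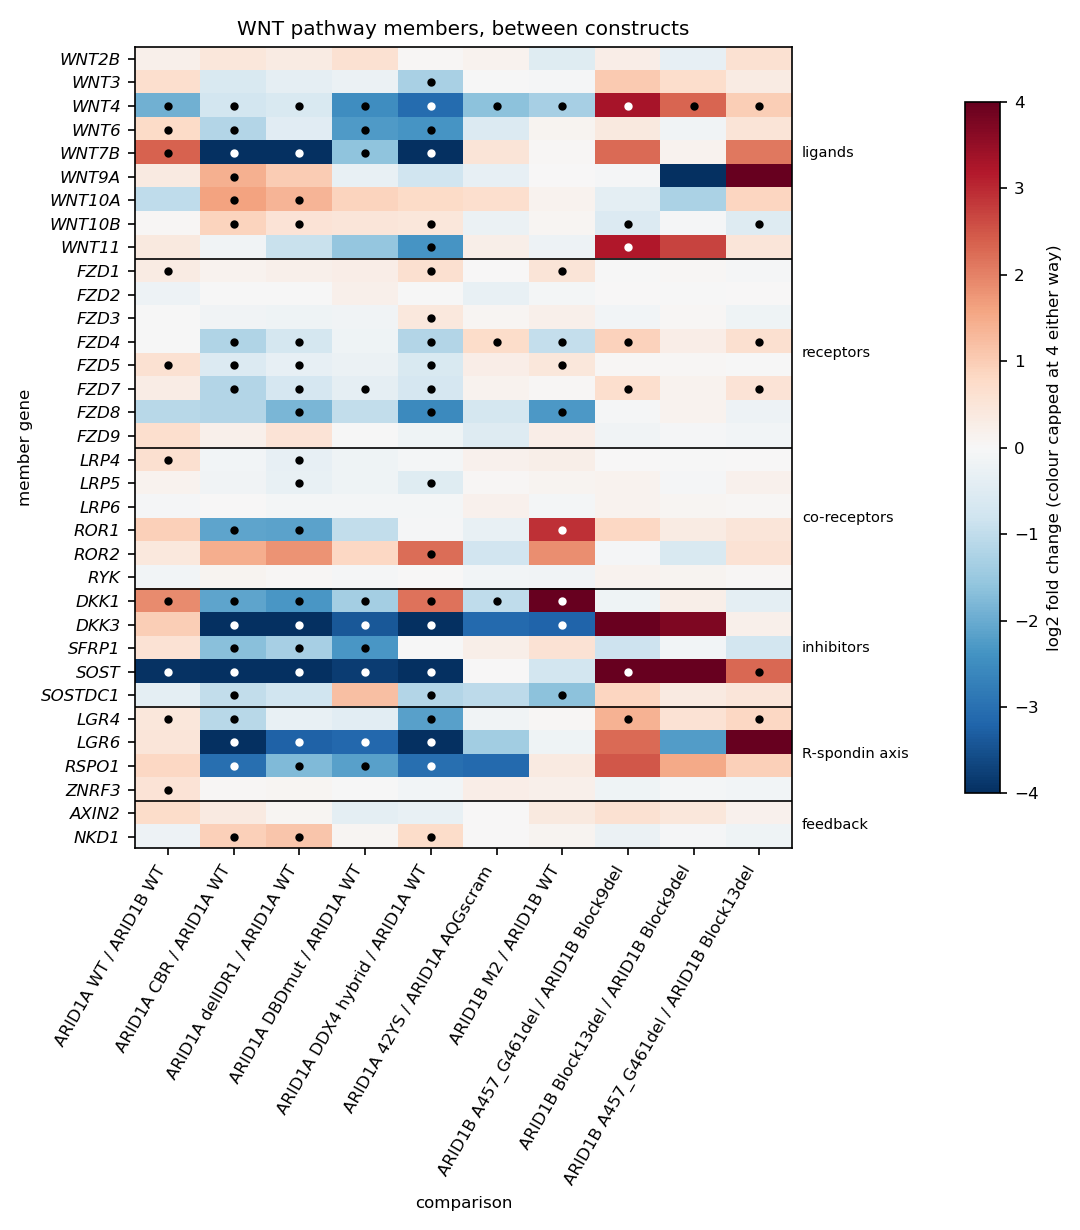
Log2 fold change of each of the 34 tested members (rows, grouped by role) in the 10 comparisons between constructs (columns, first-named construct over second), with marks on called members. DKK1 is the most raised called member in M2 against ARID1B WT, and SOST, DKK3, WNT7B and LGR6 are the lowest in CBR, delIDR1 and the DDX4 hybrid against ARID1A WT.

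Of the 2 ARID1A mutants in set 3, 42YS had 1 member higher and 2 lower than the libraries labelled AQGscram, against 8.24% and 7.54% of all genes. FZD4 was at 22.6 and 22.7 CPM with 42YS, against 15.5 and 11.5 CPM with AQGscram (log2 fold change 0.75 ± 0.12, adjusted p = 0.000196). DKK1 was at 5.22 and 5.602 CPM with 42YS, against 10.1 and 11.7 CPM with AQGscram (log2 fold change -1.01 ± 0.17, adjusted p = 0.000348). The call of WNT4 (-1.63 ± 0.42, adjusted p = 0.0306) was lost without 42YS replicate 2 or AQGscram replicate 1 or 2 (adjusted p of 0.0524 to 0.317), and without AQGscram replicate 1 the 3 called members were 6.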

How the data were processed

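Whole-number read counts per gene symbol were deposited by the authors for each of the 28 libraries, with 3 count columns per library (both strands, and each strand). Reads were handled with bcl2fastq, STAR 2.5.2b and Bowtie2 2.29 on hg19, per the submitters' processing notes, and the gene annotation is not given in the sources used here. Counts of the strand opposite to the gene were used here, and rows that name no gene (21.6 to 36.3% of reads) were left out of library sizes and tests. The 3 strand sets were found in the files and are not in the labels.

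Groups and replicate numbers follow the labels. Genes were filtered with filterByExpr, scaled by TMM and tested with edgeR 4.0.16 (quasi-likelihood F test, R 4.3.3, limma 3.58.1) in 1 fit of 28 libraries and 13 groups, with 22 contrasts and Benjamini-Hochberg adjustment over 14220 genes per contrast. That fit takes the spread of a gene from all groups, so a difference between the empty vector pairs widens it in every contrast. The standard error printed beside a log2 fold change is its size divided by the square root of F, which can be too small for genes near 0 in a group, for which fitted folds also depend on the prior count. A fold against 0 reads was set against 3 counts over the group, and one against 1 to 3 reads has a 95% counting interval. Both cover counting error only. DESeq2 1.42.0, RLE scaling, other filters, unstranded counts, the replicate number as a block, smaller fits, each empty vector pair and leaving out each library were alternatives. Only the empty vector has replicates 3 and 4, so with the replicate number as a block its replicates 1 and 2 alone serve as the control. Where a library left out leaves 1 in its group, that library is assumed to vary like the other groups. Own-pair tests and the difference of own-pair responses compare groups of strand sets 1 and 2. They came from 1 fit of all 28 libraries in which the empty vector was split into its pairs.

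The edgeR step was tested on simulated data for ARID1A WT against the empty vector with 13778 genes: it called 33 of 50 genes changed 1.5-fold, 45 of 50 at 2-fold, 50 of 50 at 4-fold, 50 of 50 at 8-fold and 8 unchanged genes. A simulation of ARID1B WT against the empty vector with no gene changed gave 0 calls. The changed genes were drawn from those with a mean over 1 CPM, and the simulated libraries held no difference between strand sets. The simulation thus does not cover members at low counts or differences between the sets. Every library's CPM is given for members called at a log2 fold change of at least 1 in size against the empty vector with a group mean of at least 1 CPM, and for DKK1, SOST, AXIN2 and NKD1, which makes 18 members. FZD2 was added after its values were seen. Between constructs, called members with a log2 fold change of at least 1 in size are named, at most 8 by size, and others named there were added after their values were seen. Of each pathway list, at most 4 called genes with the smallest p under the wild-type proteins are named. The members and lists were chosen with earlier results of these data known. Promoters came from RefSeq (GRCh38.p14). Raw reads were not analysed here.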

Additional observations from a re-analysis of the deposited data

How the results depend on the processing

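No called result of a member changed direction under any alternative. Of 290 called results, those no longer called were 27 with DESeq2, 5 with RLE scaling, 31 without the filter on low counts, 10 with unstranded counts and 21 with the replicate block. Fits of the compared groups alone lost 79 of the 272 that they tested, empty vector replicates 1 and 2 alone lost 20 of 185, replicates 3 and 4 alone lost 24 of 185, and the difference of own-pair responses lost 12 of 32. The filter at an average log2 CPM of at least 1 lost 0 of the 190 that it tested. With a library left out, 273 of 1530 refits lost the call. Counts of called members follow, with the count from the whole fit in brackets. At an average log2 CPM of at least 1, which tests fewer members, there were 14 (23) with ARID1A WT against the empty vector, 10 (19) with CBR, 9 (18) with delIDR1, 4 (10) with DBDmut and 13 (22) with the DDX4 hybrid, each against ARID1A WT, and 0 (1) with Block13del against Block9del, where 3 were higher and 0 lower at an unadjusted p under 0.05 in edgeR and DESeq2 called 3. In fits of the compared groups alone, which hold fewer samples and tested 24 to 32 of the 34 members, counts against the empty vector were 15 (23) with ARID1A WT, 12 (21) with CBR, 9 (21) with delIDR1, 10 (20) with DBDmut, 6 (12) with the DDX4 hybrid, 0 (7) with AQGscram, 2 (6) with 42YS, 13 (21) with ARID1B WT, 6 (13) with A457_G461del, 3 (13) with Block13del and 2 (10) with Block9del. For AQGscram 3 were higher and 1 lower at an unadjusted p under 0.05 in edgeR, and DESeq2 over all groups called 4 and 2. Between constructs the same fits gave 20 (10) for ARID1A WT against ARID1B WT, 16 (10) for DBDmut against ARID1A WT, 15 (9) for M2 against ARID1B WT and 11 (7) for A457_G461del against Block9del. Block13del against Block9del gave 2 (1) without the filter and 3 (1) with DESeq2. Against empty vector replicates 1 and 2 alone AQGscram gave 13 (7) and 42YS 14 (6). The cause of these moves was not tested.

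With the replicate number as a block the counts were 13 (7) with AQGscram and 13 (6) with 42YS against the empty vector, 18 (10) for ARID1A WT against ARID1B WT, 16 (10) for DBDmut against ARID1A WT, 9 (3) for 42YS against AQGscram and 3 (1) for Block13del against Block9del. Same-numbered libraries deviated together with a correlation over 0.1 in 8 of 66 pairs of groups (range -0.384 to 0.36, median 0.0105), so the numbers were not taken to pair libraries.

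Leaving out 1 library gave 16 to 22 called members (23) with ARID1A WT, 16 to 23 (21) with CBR, 13 to 21 (21) with delIDR1, 13 to 18 (20) with DBDmut, 8 to 13 (12) with the DDX4 hybrid, 5 to 10 (7) with AQGscram and 3 to 9 (6) with 42YS against the empty vector. It gave 15 to 21 (21) with ARID1B WT, 16 to 18 (18) with M2, 8 to 12 (13) with A457_G461del, 8 to 13 (13) with Block13del and 7 to 12 (10) with Block9del. Between constructs it gave 15 to 16 (19) for CBR, 12 to 14 (18) for delIDR1, 5 to 7 (10) for DBDmut and 16 to 19 (22) for the DDX4 hybrid against ARID1A WT, 6 to 7 (10) for ARID1A WT and 6 to 9 (9) for M2 against ARID1B WT, 2 to 6 (3) for 42YS against AQGscram, 3 to 4 (6) for A457_G461del against Block13del, 5 to 6 (7) for A457_G461del and 0 to 1 (1) for Block13del against Block9del. At these depths members under the filter level of 0.454 CPM in all groups could not be tested.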
